A study of Mus musculus with 31 samples.

Results

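The renin-angiotensin system was followed through 9 genes chosen by symbol (Ren1, Agt, Ace, Agtr1a, Agtr1b, Enpep, Mme, Mas1 and Atp6ap2) among the 23509 genes counted in whole mouse kidney. All 9 were found in every kidney, and 8 of them passed the filter on low counts that left 15185 genes for testing, the exception being Agtr1b. Kidney mRNA was sequenced from 31 mice: 12 Pcy/CD1 mice given PBS, 14 Pcy/CD1 mice given RGLS4326 subcutaneously at 25 mg kg-1 every month and 5 untreated wild-type males of the CD1 strain, age-matched to them. The Pcy/CD1 mouse is a slowly progressing model of polycystic kidney disease that carries the recessive pcy mutation, and RGLS4326 is a short synthetic oligonucleotide complementary to the microRNA miR-17. Dosing ran for 25 weeks from 5 weeks of age, and kidneys were taken at 30 weeks. The sample labels give PBS dosing as weekly, while the treatment text reads as monthly for both agents. The wild-type mice received no injection, so that genotype and injection cannot be told apart in any comparison with them.

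Counts on genes totalled 14892524 to 27459962 per mouse. The kidney label was borne out by the proximal tubule markers, which summed to 23614 to 25842 CPM in wild-type mice (CPM being counts per 1000000 after TMM scaling of the library size). They summed to 7384 to 14501 CPM with PBS and 9778 to 21885 CPM with RGLS4326. RGLS4326-treated mouse 9 had the highest sum of the treated mice and stood nearest to wild type, so results that rest on it are given with and without it. Within any group, the libraries most like each other were those of wild-type mice 3 and 4, with a chi-square per gene of 2.84 against at least 5.21 for every other pair from the same group, where sampling noise alone gives about 1. They were kept as 2 mice. Library names as deposited carry numbers, and by these the mice of each group were divided into 3 index series. No sample label names the series. They were treated as technical batches. That a series number marks the same batch in every group was assumed and not tested. The covariate fit and all results within an index series that compare or pool groups rest on that assumption. The fit behind the values below has no term for index series. With index series as a covariate, all 8 tested members were called for PBS against wild type, where 73.9% of all genes were called in either direction, and all 8 for RGLS4326 against wild type, where 64.4% were. For RGLS4326 against PBS that fit called Ace (log2 fold change 0.34, adjusted p = 0.0435) and Mas1 (0.58, adjusted p = 0.0257), where it called 14.7% of all genes.

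In this system the liver and, in part, the kidney provide angiotensinogen, from which renin, secreted by juxtaglomerular cells, cuts angiotensin I. Angiotensin-converting enzyme turns angiotensin I into angiotensin II, which acts on type 1 receptors to constrict vessels and retain sodium. Other peptidases destroy angiotensin II or divert the peptides to angiotensin-(1-7), the ligand of Mas. Blockade of the system is a standard treatment of raised blood pressure in polycystic kidney disease, where hypertension commonly comes early.

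The drug's target and the short start-site stretches of the member genes are printed because the first defines what RGLS4326 binds and the second is what several member promoters were found to share. The mature microRNA, as RefSeq gives it on the plus strand of GRCm38.p6 at chr14:115043684-115043706, has its seed, bases 2 to 8, in capitals.
mmu-miR-17-5p: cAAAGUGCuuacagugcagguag
The same seed occurs in miR-20a, miR-20b, miR-93, miR-106a and miR-106b, making 6 family members in all. A message matches this seed where its 3′UTR holds GCACTTT, or GCACTTTA for the longer match. None of the 9 members has either in its longest annotated 3′UTR (GENCODE vM21 on GRCm38, sense strand only), the lengths running from 187 bases for Ren1 to 5698 for Mme. Among all 21689 genes with a 3′UTR, whose median length was 917 bases, 11.4% have one, and among the tested genes 14% do. The absence says only that these letters are not in these windows.

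RefSeq start-site windows of 250 bases before to 50 bases after the start were found for 8 of the 9 members, 11 windows in all, with no entry used for Agtr1a. The TATA word TATAAA, searched on both strands and so also as TTTATA, was in 5 of the 11, belonging to Ren1, Agt, Ace, Agtr1b and Enpep, against 13.6% of 32851 windows of all genes. Around the word, in capitals, 30 bases of the gene's strand read as follows in 4 of these genes, at chr1:133350634-133350663 on the plus strand for Ren1, chr8:124569718-124569747 on the minus strand for Agt, chr3:20367190-20367219 on the minus strand for Agtr1b and chr11:105967906-105967935 on the plus strand for Ace (GRCm38.p6).
Ren1: tacatggtgtgTATAAAagaaggctcaggg
Agt: caccccttgagTATAAAtaagcctgcttgg
Agtr1b: cccctttgctgTATAAAttgtagctgtctc
Ace: ggtggctgggtTTTATAatccgcagggcgg
The word began 29 bases before the start in Ren1, 30 before it in Agt and 31 before it in Agtr1b, and 31 before it on the opposite strand in Ace. Enpep held it on the opposite strand only, 52 bases and 1 base before the start, and so not at the position of the other 4 genes. The cyclic AMP response element TGACGTCA was in 0 of the 11 windows and 1.79% of all windows, and the hepatocyte nuclear factor word GTTAAT in 0 and 7.1%. The nuclear receptor word AGGTCA was in 1, a second Ace window, and in 16.3% of all. These matches are descriptions and not shown to be bound sites.

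The first comparison, PBS-treated Pcy/CD1 kidneys with wild-type kidneys, asks how the system differs in cystic disease. Messages for renin, the converting enzyme, the receptors Agtr1a, Mas1 and Atp6ap2 and the peptidases were lower in Pcy/CD1 kidneys, and that for the substrate angiotensinogen was higher. Of the 8 members tested, 7 fell, where 36.6% of all 15185 genes fell, and 1 rose, where 37.7% rose. The fall was 4.86-fold for Mas1, 4.29-fold for Ren1 and 2.65-fold for Ace, and the rise of Agt was 1.76-fold. The median log2 fold change of the 8 members was -0.73, against 0.01 over all genes tested. All 3 comparisons share groups of mice and are not independent of each other.

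**Figure D1:**
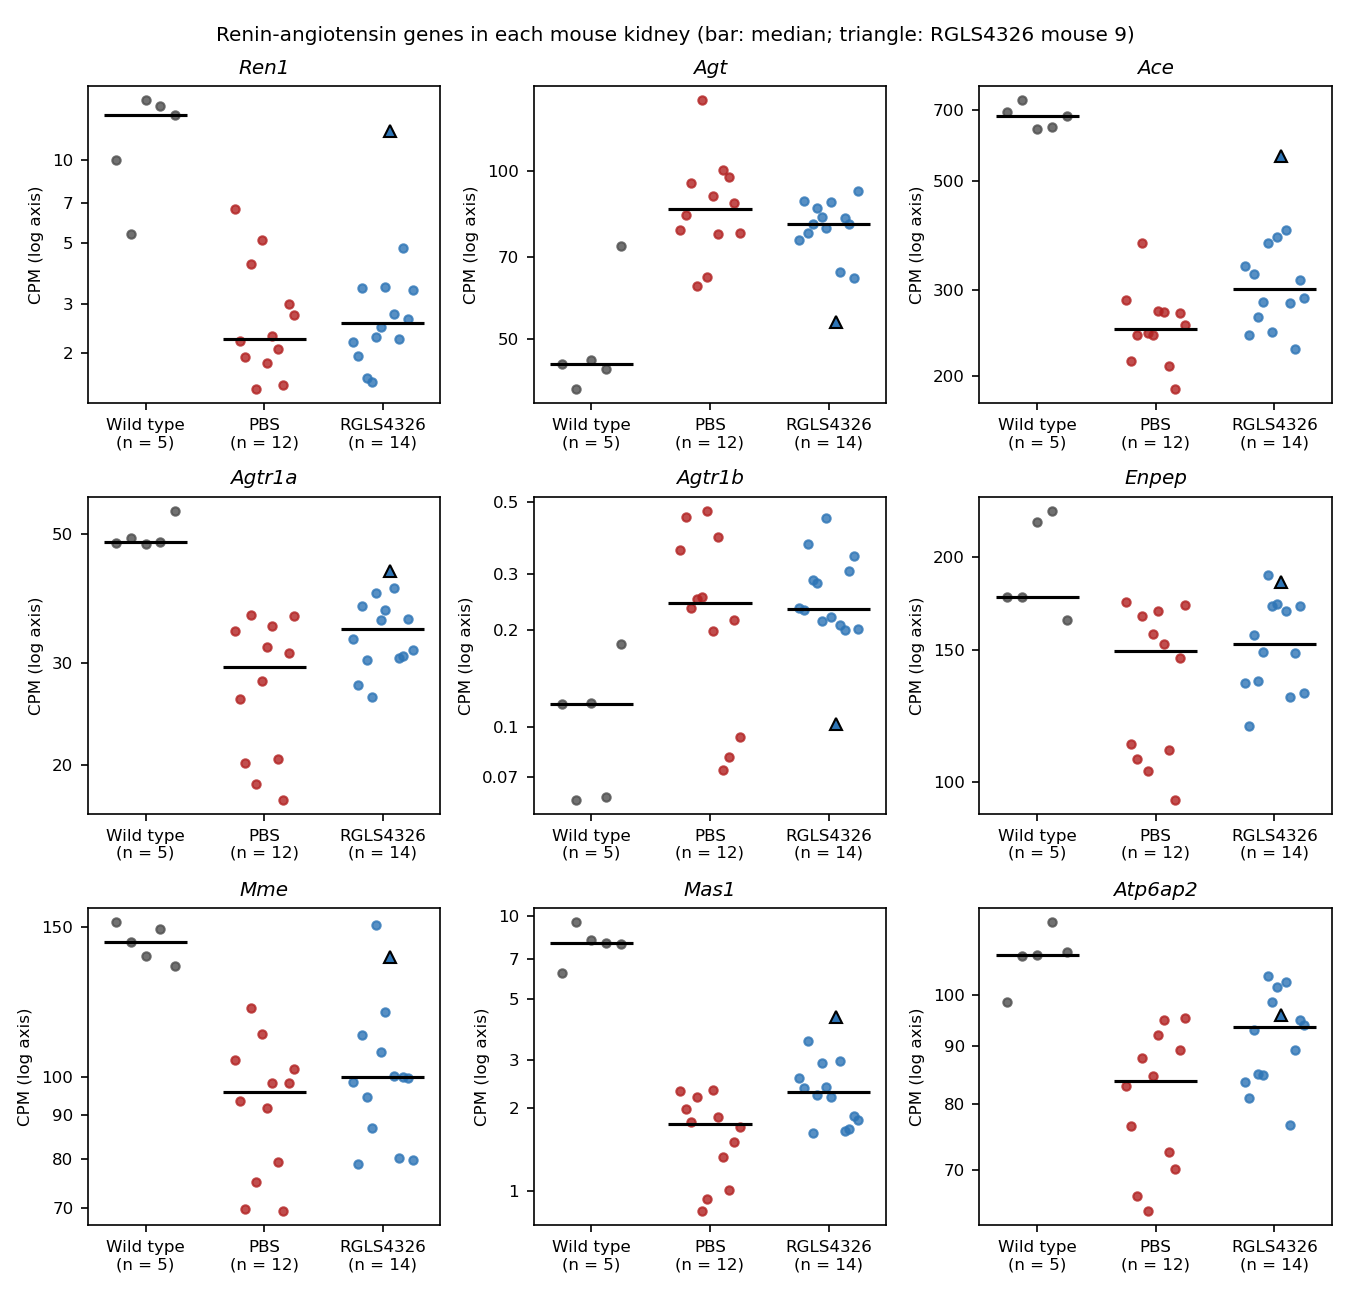
Level of each member in every mouse, in CPM on a log axis, for the 5 wild-type, 12 PBS-treated and 14 RGLS4326-treated mice, with a bar at each group's median and a triangle for RGLS4326-treated mouse 9. Mas1 lies between 6.19 and 9.50 CPM in wild type and below 2.35 CPM in every PBS-treated mouse, while Agt lies higher in both Pcy/CD1 groups.

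Agt, which encodes the substrate of the whole system, lies on the minus strand of chromosome 8 from 124556534 to 124569706 (GRCm38) in 5 exons. In wild-type mice 1 to 5 it read 45.0, 40.7, 45.8, 44.1 and 73.2 CPM. With PBS the lowest, median and highest values were 62.2, 85.6 and 134 CPM. All but 2 of the 12 PBS-treated mice were above every wild-type mouse, the overlap being due to wild-type mouse 5. As a log2 fold change the rise was 0.81 (standard error, SE, 0.14, adjusted p = 1.06e-05, from the quasi-likelihood F test of edgeR adjusted over all genes tested by the Benjamini-Hochberg method, as for every adjusted p of a single gene here). Summed hepatocyte markers, a list that does not hold Agt, were 25.7 to 282 CPM in wild type, the highest being mouse 5, and 9.47 to 85.7 CPM with PBS. Wild-type mice 3 and 4 had sums of 222 and 224 CPM, and mice 1 and 2 had 39.4 and 25.7 CPM.

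Ren1, the gene for the protease that starts the cascade, spans 133350510 to 133360325 on the plus strand of chromosome 1 in 9 exons. The wild-type kidneys read 10.03, 5.41, 16.5, 15.7 and 14.6 CPM. With PBS the values ran from 1.48 to 6.63 CPM with a median of 2.25 CPM. The difference passed the test (log2 fold change -2.10, SE 0.36, adjusted p = 7.27e-06), and 11 of 12 PBS-treated mice were below every wild-type mouse. Ren1 was the tested member that varied most between wild-type mice (coefficient of variation 37.5%), and each Pcy/CD1 kidney gave it only 34 to 250 counts. Within the first index series, of 2 wild-type and 4 PBS-treated mice, the log2 fold change was -1.06 and did not pass (adjusted p = 0.0763). Within the second it was -2.55 (adjusted p = 0.0167). That value rests on wild-type mice 3 and 4, the most alike pair, which had the highest wild-type Ren1 values.

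The near-identical Ren2, a duplicated renin gene of some strains, had 1 to 15 counts in wild type, 3 to 8 with PBS and 1 to 17 with RGLS4326. Ren2 has no location in the GRCm38 annotation used here, and whether reads shared by both genes were lost to the Ren1 count was not tested, so that the Ren1 level is uncertain. Adding both counts gave a log2 fold change of -2.04 (adjusted p = 1.04e-05) for PBS against wild type.

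Genes that mark or control the renin-producing cells and the macula densa did not follow Ren1 in one direction. Of 12 such genes tested, 3 rose and 3 fell, beside shares of 37.7% and 36.6% over all genes. Foxd1, a stromal progenitor factor, rose by 0.71 on the log2 scale (SE 0.30, adjusted p = 0.0321). Gja5, the connexin of renin cells, rose by 0.41 (SE 0.13, adjusted p = 0.00659). Adrb1, the receptor through which sympathetic nerves release renin, fell by 0.63 (SE 0.14, adjusted p = 0.000263). Gja4, another vascular connexin, rose by 0.37 (adjusted p = 0.0163).

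Atp6ap2 encodes the (pro)renin receptor, which is also an accessory subunit of the vacuolar proton pump. It lies on the X chromosome, plus strand, from 12587801 to 12617049. Wild-type mice read 98.6, 108, 108, 116 and 109 CPM and PBS-treated mice 64.4 to 95.3 CPM (median 83.9), with no overlap. This was the smallest fold change of the tested members (log2 fold change -0.41, SE 0.081, adjusted p = 4.82e-05, a 1.33-fold fall), although the level varied little within groups.

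Ace, the converting enzyme and a brush border protein of the proximal tubule in rodents as well as an endothelial one, lies on the plus strand of chromosome 11 from 105967945 to 105989964 in 25 exons. The wild-type values were 691, 732, 639, 646 and 680 CPM. PBS-treated mice had 188 to 374 CPM, with a median of 249, and every one was below every wild-type mouse. This gave a log2 fold change of -1.41 (SE 0.14, adjusted p = 4.55e-09), and it was -1.35 and -1.31 within the first and second index series. In the second, the only wild-type mice are mice 3 and 4. The antisense gene Gm11651, which overlaps Ace exons, had 0 to 2 counts in any mouse.

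Among the receptors, Agtr1a, the main type 1 receptor of the mouse kidney, lies on the plus strand of chromosome 13 from 30336441 to 30382867. It read 48.3, 49.3, 48.0, 48.6 and 54.8 CPM in wild type, mouse 5 being the highest. With PBS it read 17.4 to 36.3 CPM with a median of 29.5 CPM and no overlap. Its log2 fold change was -0.84 (SE 0.14, adjusted p = 4.36e-06), a 1.79-fold fall. Agtrap, whose product binds the type 1 receptor and draws it into the cell, fell by 0.41 on the log2 scale (SE 0.07).

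Agtr1b, the second mouse type 1 receptor (chromosome 3, minus strand, 20314473 to 20367177), was close to the detection limit. It had 1 to 3 counts in wild-type mice (0.118, 0.0594, 0.118, 0.0605 and 0.181 CPM), 2 to 11 with PBS and 2 to 10 with RGLS4326. A fit with no filter on low counts called it higher with PBS than in wild type (adjusted p = 0.0165) and with RGLS4326 than in wild type (adjusted p = 0.0137), but no fold is given for such counts. Agtr2, the type 2 receptor, also failed the filter and ran from 0 to 0.118 CPM in wild type, 0 to 0.18 with PBS and 0 to 0.2 with RGLS4326.

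Mas1 (chromosome 17, minus strand, 12841079 to 12868143), the receptor of angiotensin-(1-7), was expressed at 6.19, 9.50, 8.22, 7.99 and 7.95 CPM in wild type. The PBS-treated mice read 0.848 to 2.34 CPM with a median of 1.75 CPM, from 20 to 47 counts each. The log2 fold change of -2.28 (SE 0.20, adjusted p = 9.67e-10) was the largest of the tested members, and was -1.93 and -2.43 in the first and second index series. Here too the second series has only mice 3 and 4 as wild type. The Mas1 locus overlaps the antisense gene Airn, though no exons overlap, and the strand setting of the counting is not given in the sources used here. Airn had 161 to 254 counts in wild type and 105 to 270 with PBS, and it fell too (log2 fold change -0.71, adjusted p = 0.000847). For RGLS4326 against PBS, Airn differed by 0.08 on the log2 scale (adjusted p = 0.703). Its part in the Mas1 results was not tested.

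Of the angiotensin-degrading peptidases, Mme encodes neprilysin, which makes angiotensin-(1-7) from angiotensin I and lies on chromosome 3 (plus strand, 63241537 to 63386030). It read 152, 144, 138, 149 and 135 CPM in wild type and 69.5 to 120 CPM (median 96.0) with PBS, without overlap (log2 fold change -0.63, SE 0.13, adjusted p = 5.86e-05). Enpep, aminopeptidase A, which trims angiotensin II to angiotensin III, lies on the minus strand of the same chromosome from 129269175 to 129332720. Its wild-type values were 177, 177, 223, 230 and 164 CPM. With PBS it ran from 94.7 to 174 CPM with a median of 150, so the groups overlapped and 8 of 12 PBS-treated mice were below every wild-type mouse. Expressed as a log2 fold change this was -0.48 (SE 0.13, adjusted p = 0.00165). Within the first index series it was -0.34 and did not pass (adjusted p = 0.163). The aminopeptidase Anpep, the next enzyme in this path, fell by 0.55 (SE 0.12, adjusted p = 0.000113).

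Across members the level per kilobase of exon changed order between the groups. In wild type the order of median CPM per kilobase was Ace at 129, Atp6ap2 at 41.4, Enpep at 37.6, Agt at 23.8, Agtr1a at 17.4, Mme at 12.5, Ren1 at 8.79, Mas1 at 3.05 and Agtr1b at 0.0549. With PBS, Ace at 47.2 and Agt at 45.3 CPM per kilobase stood side by side, followed by Atp6ap2 at 32.1 and Enpep at 31.8. In wild type the ranges over mice overlapped between Atp6ap2 and Enpep, between Enpep and Agt and between Ren1 and Mas1, and no other neighbours overlapped. Next to each other in the PBS order, Ace and Agt, Agt and Atp6ap2, Atp6ap2 and Enpep, and Agtr1a and Mme overlapped. With RGLS4326 the median of Ace was 56.9, that of Agt 42.5, that of Atp6ap2 35.7 and that of Enpep 32.5 CPM per kilobase, and neighbours among these 4 overlapped. Ren1 and Mas1 were the lowest of the tested members in every group, at 1.36 and 0.668 CPM per kilobase with PBS and 1.55 and 0.879 with RGLS4326.

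The second comparison, RGLS4326 with PBS in Pcy/CD1 mice, asks whether the anti-miR-17 oligonucleotide altered the same genes. Messages for the converting enzyme and for Mas were higher after treatment, by 1.26-fold for Ace and 1.49-fold for Mas1, and both stayed far below wild type. Of the 8 members tested 2 were called higher, where 9.15% of all genes were, and 0 were called lower, where 6.66% of all genes were. At an unadjusted p under 0.05, edgeR gave 4 higher and 0 lower, where 19.6% of all genes were higher and 17.2% lower, and DESeq2 called 4 after adjustment, where it called 21.1% of all genes in either direction. The median log2 fold change was 0.20 over the 8 members and -0.004 over all genes tested. No treatment response was called in any index series taken alone, where 0 of all tested genes passed in each of the 3 (280, 2981 and 3101 genes at an unadjusted p under 0.05).

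**Figure D2:**
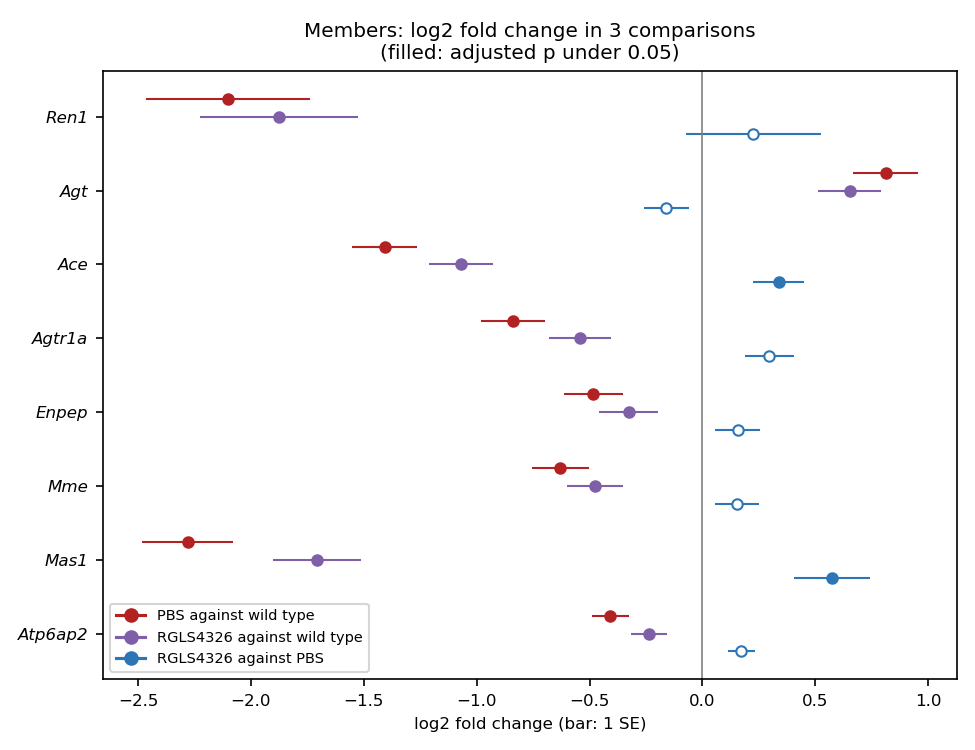
Log2 fold change of the 8 tested members in each of the 3 comparisons, with a bar of 1 standard error either way and points filled where the adjusted p was under 0.05. For RGLS4326 against PBS only Ace at 0.34 and Mas1 at 0.57 are called, and 7 of 8 values lie above 0.

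Mas1 read 1.62 to 4.29 CPM with RGLS4326 (median 2.30), from 33 to 95 counts per mouse. Of the 14 treated mice, 11 were above the PBS median and 7 above every PBS-treated mouse. Treatment thus gave a log2 fold change of 0.57 (SE 0.17, adjusted p = 0.0279). It was 0.30, 0.92 and 0.51 in the 3 index series alone. Without RGLS4326-treated mouse 9 it was 0.49 (adjusted p = 0.0493), and the call was lost when PBS-treated mouse 5, 9 or 10 was left out (adjusted p = 0.0552 to 0.0616).

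Ace read 226 to 563 CPM with RGLS4326 and had a median of 301 CPM. The values of both groups overlapped, 11 of 14 treated mice being above the PBS median and 3 above every PBS-treated mouse. The log2 fold change was 0.34 (SE 0.11, adjusted p = 0.0414) and ran from 0.25 to 0.40 with single mice left out, but the call was lost without any one of 13 mice, namely PBS-treated mice 2, 3, 5, 6, 9, 10 and 11 and RGLS4326-treated mice 3, 6, 8, 9, 10 and 13 (adjusted p = 0.0514 to 0.0855). Without RGLS4326-treated mouse 9, the highest of its group at 563 CPM, it was 0.25 (adjusted p = 0.0714). Within the index series it was 0.06, 0.52 and 0.39.

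Agtr1a and Atp6ap2 were just outside the threshold. Agtr1a read 26.2 to 43.2 CPM (median 34.3), with 12 of 14 treated mice above the PBS median and a log2 fold change of 0.30 (95% interval 0.09 to 0.51, adjusted p = 0.0538). Atp6ap2 read 76.7 to 104 CPM (median 93.6), with 11 of 14 above the PBS median and a log2 fold change of 0.17 (95% interval 0.05 to 0.29, adjusted p = 0.0503). Each became significant on leaving out some single mice, 9 for Agtr1a and 11 for Atp6ap2.

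The other members gave no call. Ren1 read 1.56 to 12.8 CPM with RGLS4326 (median 2.57), a log2 fold change of 0.23 (95% interval -0.36 to 0.81, adjusted p = 0.597). Its highest value came from mouse 9, without which the log2 fold change was -0.12 (adjusted p = 0.757). Agt read 53.6 to 92.1 CPM (median 80.3), and here mouse 9 was the lowest, with a log2 fold change of -0.16 for the group (95% interval -0.36 to 0.04, adjusted p = 0.249) and of -0.088 without PBS-treated mouse 5. Enpep read 119 to 189 CPM (median 153; log2 fold change 0.16, 95% interval -0.04 to 0.35) and Mme 79.0 to 151 CPM (median 99.8; log2 fold change 0.15, 95% interval -0.04 to 0.34, and 0.10 without RGLS4326-treated mouse 6). These intervals do not show that the groups were alike, but for Agt, Enpep and Mme they leave room only for changes of less than 0.4 on the log2 scale.

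Treated kidneys were also compared with wild type, to see how far each member remained from the healthy level. Again 1 member was higher, where 32.5% of all genes were, and 7 were lower, where 32.4% of all genes were, and the median log2 fold change of the members was -0.51 against 0.004 for all genes. Mas1 was 3.26-fold lower (log2 fold change -1.71, SE 0.19, adjusted p = 1.14e-07), Ren1 3.67-fold lower (-1.87, SE 0.35, adjusted p = 4.2e-05) and Ace 2.10-fold lower (-1.07, SE 0.14, adjusted p = 5.26e-07). No treated mouse reached the wild-type range of Ace, Agtr1a or Mas1, and 1 of 14, mouse 9, reached that of Ren1. Agt was 1.57-fold higher (log2 fold change 0.65, SE 0.14, adjusted p = 0.000216), with 11 of 14 treated mice above every wild-type mouse. Smaller falls were seen for Agtr1a (-0.54, adjusted p = 0.00111), Mme (-0.48, adjusted p = 0.00143), Enpep (-0.33, adjusted p = 0.0284) and Atp6ap2 (-0.23, adjusted p = 0.0112). The call for Enpep was lost without wild-type mouse 3 (adjusted p = 0.101) or mouse 4 (adjusted p = 0.115), the pair that was most alike.

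The wider pathway was read from lists of other genes. Of 16 further angiotensin-processing peptidases, receptors and receptor-binding proteins, 10 were tested, and 2 rose and 7 fell in PBS-treated mice against wild type (median log2 fold change -0.41), beside shares of 37.7% and 36.6% over all genes. Besides Anpep, the falls included Lnpep, the insulin-regulated aminopeptidase that binds angiotensin IV (-0.62, SE 0.15, adjusted p = 0.000504), and Nln, neurolysin (-0.48, SE 0.06, adjusted p = 6.12e-08). Thop1, another enzyme that makes angiotensin-(1-7), rose by 0.41 (adjusted p = 0.000103). RGLS4326 against PBS gave 1 call of the 10, beside shares of 9.15% higher and 6.66% lower over all genes. This was Klk1, tissue kallikrein, which had fallen by 0.42 with PBS against wild type (adjusted p = 0.0021) and was higher by 0.30 (SE 0.09, adjusted p = 0.0288). Without mouse 9 none of the 10 was called, where 8.14% of all genes were called in either direction. Agtrap was 0.07 higher (adjusted p = 0.343) and Anpep 0.15 higher (adjusted p = 0.221), neither of which passed. Against wild type, treated mice had 1 higher and 6 lower, beside 32.5% and 32.4% over all genes.

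Of 11 tested genes of the kinin system and of the aldosterone response, 6 rose and 3 fell in PBS-treated mice against wild type, beside shares of 37.7% and 36.6% over all genes. Hsd11b2, which protects the mineralocorticoid receptor from glucocorticoids in the collecting duct, rose by 1.55 (SE 0.15, adjusted p = 2.56e-09), Cpn1, a carboxypeptidase that inactivates kinins, by 1.30 (SE 0.27, adjusted p = 8.78e-05), and Scnn1g and Scnn1b, subunits of the epithelial sodium channel, by 1.26 (SE 0.13, adjusted p = 3.55e-09) and 1.20 (SE 0.13, adjusted p = 1.12e-08). The 3 that fell were Slc12a3, the thiazide-sensitive sodium-chloride cotransporter (log2 fold change -0.68, adjusted p = 6.64e-06), Sgk1, an aldosterone-induced kinase (-0.49, adjusted p = 0.0111), and Nr3c2, the mineralocorticoid receptor itself (-0.40, adjusted p = 0.0113). Hsd11b2, Scnn1g and Scnn1b, and no others of the 11, were called in RGLS4326 against PBS, all lower, where 6.66% of all genes were lower and 9.15% higher. Hsd11b2 fell by 0.32 (SE 0.10, adjusted p = 0.0352), Scnn1g fell by 0.33 (adjusted p = 0.0191) and Scnn1b fell by 0.41 (adjusted p = 0.00989). The count of 3 was the same without mouse 9, where 8.14% of all genes were called in either direction. In the renin cell list, RGLS4326 against PBS gave 1 higher, Nr1h3, the liver X receptor alpha gene (log2 fold change 0.15, SE 0.05, adjusted p = 0.0461), and 1 lower, Gja5 (log2 fold change -0.35, SE 0.10, adjusted p = 0.0222), of 12 tested, beside the same shares of 9.15% and 6.66%. Without mouse 9 the call of Nr1h3 was lost and 1 lower was left, beside the same 8.14% of all genes.

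**Figure D3:**
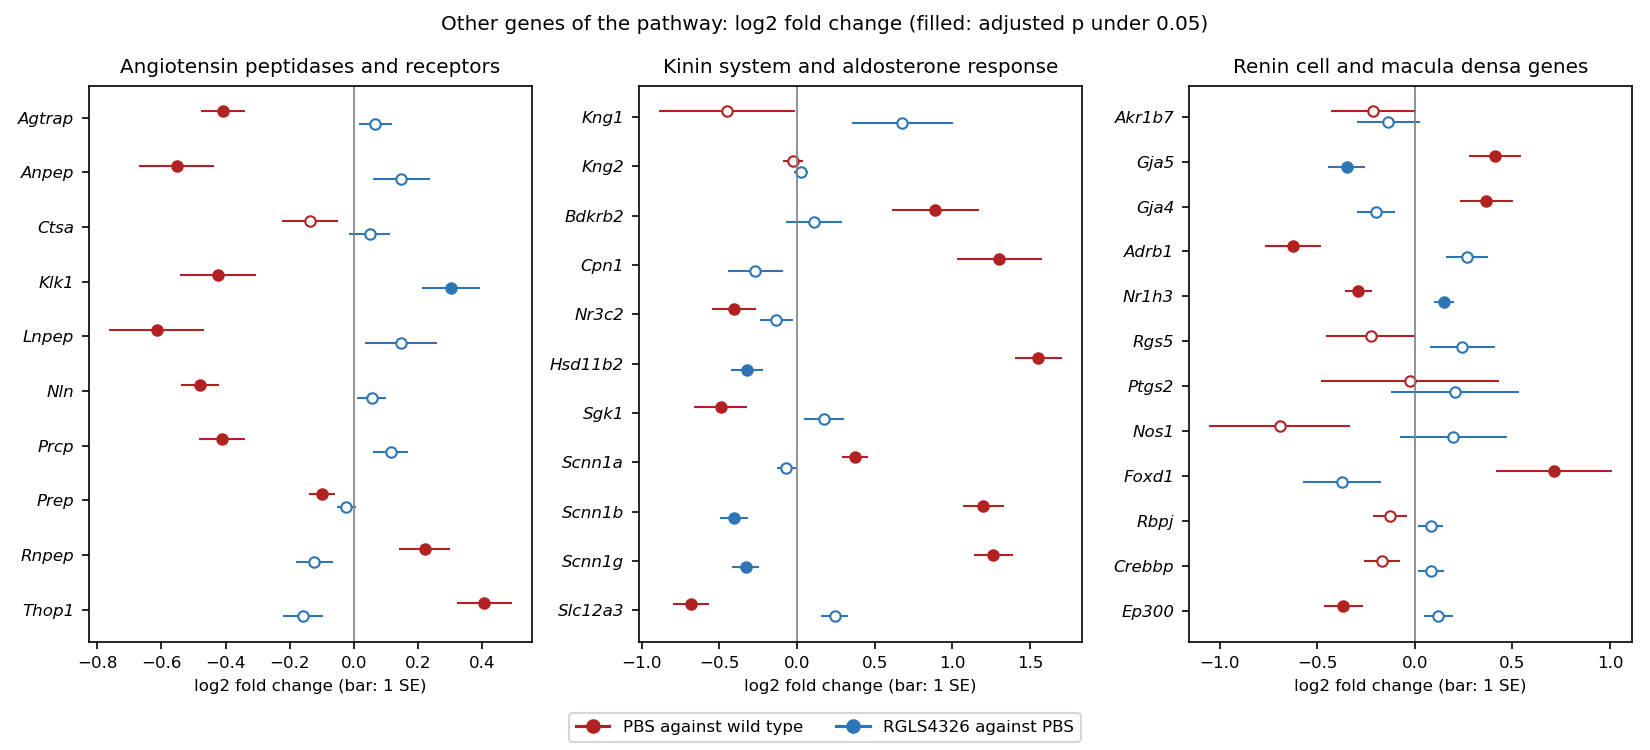
Log2 fold change of every tested gene in 3 lists of pathway genes, for PBS against wild type and for RGLS4326 against PBS. Bars span 1 standard error either way, and points are filled where the adjusted p was under 0.05. In the list of angiotensin peptidases and receptors 7 of 10 genes are called lower with PBS, while Scnn1b, Scnn1g and Hsd11b2 lie at 1.20 or above with PBS and are called lower with RGLS4326.

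Markers of kidney cell types were read in the same mice. In whole kidney RNA, fewer cells of a type and less RNA per cell cannot be told apart. The counts of markers stand beside shares over all genes of 37.7% higher and 36.6% lower for PBS against wild type, and of 9.15% higher and 6.66% lower for RGLS4326 against PBS. All 10 proximal tubule markers were lower in PBS-treated mice than in wild type, and 4 of 10 were higher with RGLS4326 than with PBS (median log2 fold change of the 10, 0.36). Without mouse 9 only 1 of 10 passed, where 8.14% of all genes did in either direction, and the median was 0.30. At an unadjusted p under 0.05, 8 of 10 were higher, where 19.6% of all genes were. Fibroblast markers summed to 94.4 to 157 CPM in wild type, 462 to 996 with PBS and 167 to 1009 with RGLS4326 (4 of 6 higher with PBS), and macrophage markers to 149 to 158, 294 to 489 and 145 to 544 CPM (5 of 5 higher). The mesangial, smooth muscle and pericyte markers summed to 147 to 189, 193 to 504 and 219 to 462 CPM, with 6 of 7 higher and 1 lower with PBS, and endothelial markers to 248 to 358, 180 to 332 and 172 to 390 CPM, with 1 of 7 higher and 3 lower. Podocyte markers summed to 190 to 337, 217 to 386 and 216 to 334 CPM, with 2 higher. For RGLS4326 against PBS, edgeR called 0 genes of the podocyte, mesangial, endothelial, fibroblast and macrophage lists, and at an unadjusted p under 0.05 it gave 1 podocyte and 3 mesangial list genes, all lower, where 17.2% of all genes were lower. Mast cell markers, relevant because mast cell chymase also forms angiotensin II, were at 16.2 to 280 CPM in wild type, 24.4 to 43.5 with PBS and 19.3 to 30.9 with RGLS4326. The high wild-type sums came from Hdc, histidine decarboxylase, alone (0.06 to 263 CPM in wild type), while Tpsb2, Tpsab1, Fcer1a and Ms4a2 were at or near 0, so that the sum does not measure mast cells. Of the 6 genes only Kit and Hdc passed the filter, Tpsab1 was at 0 in every wild-type mouse and Fcer1a at 0 in every Pcy/CD1 mouse. Hepatocyte markers ran from 10.7 to 506 CPM with RGLS4326, the highest being mouse 9, with 2 of 7 called higher than with PBS, 5 of 7 higher at an unadjusted p under 0.05, and 0 called without that mouse. The part of any of these cell types in the member results was not tested.

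Among the 26 Pcy/CD1 mice, with group means removed, most members correlated positively with each other and Agt negatively with the rest. For 28 pairs of the 8 tested members, on log2(CPM + 1), 27 had a Pearson r with an adjusted p under 0.05 by permutation within groups, 20 of them positive and 7 negative. The 7 negative ones were Agt with each other member. Correlations of this size were common in these mice. Of all pairs of the 15185 tested genes, 32.5% had an r at least as far from 0 as the weakest of the 27 (0.43), 16.3% positive and 16.2% negative, beside 96.4% of the member pairs. Spearman's rho passed as well in 26 of the 28. Agtr1a with Enpep was the closest pair (r = 0.90, rho = 0.88, permutation p = 1e-05, the smallest these resamples can give, and adjusted p = 5.6e-05), at 0.95 in PBS-treated and 0.81 in RGLS4326-treated mice alone. Agtr1a with Atp6ap2 gave 0.88, Enpep with Atp6ap2 0.87 and Enpep with Mme 0.84, and in RGLS4326-treated mice alone these were 0.78, 0.84 and 0.87. Agt with Agtr1a gave r = -0.71 and rho = -0.74 (permutation, adjusted p = 0.000404 for r), and Agt with Ren1 r = -0.66 and rho = -0.57 (permutation, adjusted p = 0.000957 for r). Without the 2 mice farthest from the median of the first gene, the r of Agtr1a with Enpep was 0.87, but that of Ren1 with Mas1 went from 0.43 to 0.05, that of Ren1 with Ace from 0.58 to 0.29 and that of Agt with Mas1 from -0.49 to -0.21, so these 3 rest on few mice. Ren1 with Atp6ap2 did not pass (r = 0.38, permutation, adjusted p = 0.0502). No pair changed sign within an index series of 8, 9 or 9 mice, where the size of r ran from 0.456 to 0.972, from 0.222 to 0.922 and from 0.00632 to 0.955.

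**Figure D4:**
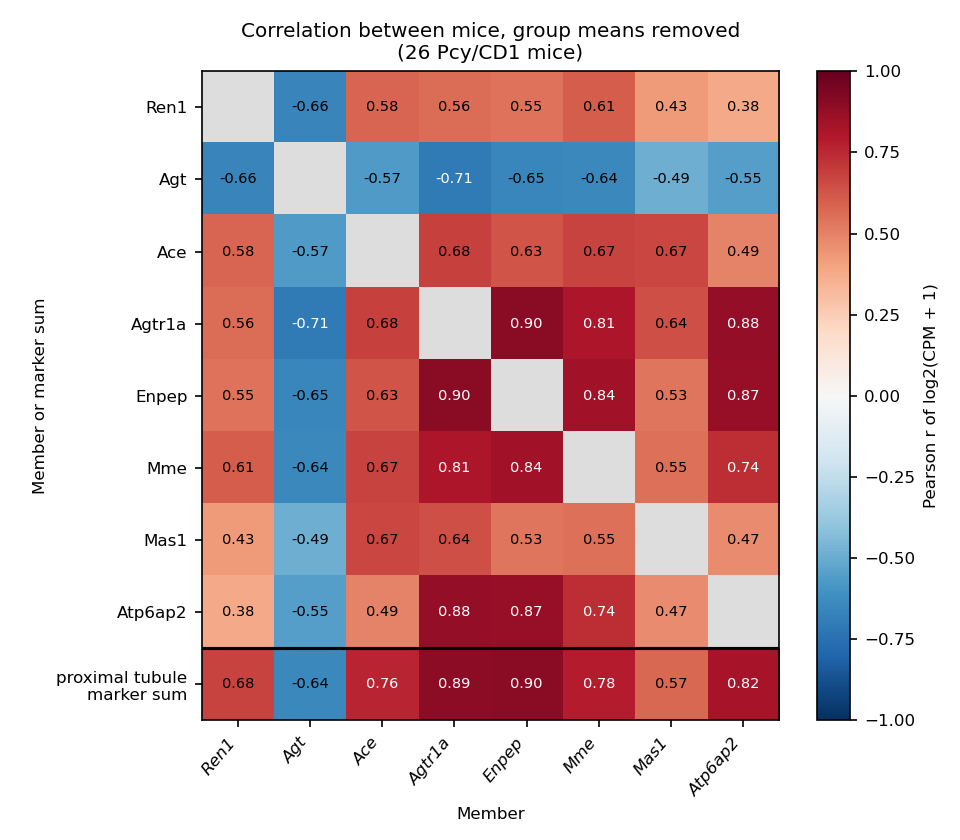
Pearson r between members across the 26 Pcy/CD1 mice, on log2(CPM + 1) with the group mean removed, as a colour for each of the 28 pairs, with a last row for the summed proximal tubule markers. The row of Agt is negative throughout, from -0.71 with Agtr1a to -0.49 with Mas1, and the block of Agtr1a, Enpep, Mme and Atp6ap2 lies between 0.74 and 0.90.

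The PBS-treated mice did not spread evenly. Mice 2, 3, 5, 9 and 10, which come from all 3 index series, read 94.7 to 112 CPM for Enpep, and the other 7 read 147 to 174. No such gap was seen in the 14 RGLS4326-treated mice. Among them alone 15 of the 28 pairs passed, and 18 among the 12 PBS-treated mice alone. The share of all gene pairs that pass was not computed within either group, and these counts were not compared by a test. Across all 26, members followed the proximal tubule sum in the order Enpep (r = 0.90), Agtr1a (0.89), Atp6ap2 (0.82), Mme (0.78), Ace (0.76), Ren1 (0.68) and Mas1 (0.57), with Agt at -0.64 (8 relations, looked at after the pairs were seen). Among the 14 RGLS4326-treated mice alone, these were 0.81, 0.83, 0.75, 0.75, 0.80, 0.74, 0.53 and -0.62 in the same order. Across all 26 mice the adjusted p was at most 0.0032 for r and 0.00588 for rho by permutation. The share of all tested genes that follow this sum as closely was not computed. Whether the pairs vary together apart from this sum was not tested.

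The genes most like each member across all 31 mice, after removal of group means, were sought among the 13784 genes that averaged 1 CPM or more. Agtr1a was closest to Gcnt1 (r = 0.95), Mme to Golga4 (0.95), Enpep to Hps3 (0.93) and Atp6ap2 to Mfsd1 (0.91), which was followed by Gatm, the creatine synthesis enzyme of the proximal tubule (0.91). Ace was closest to Slc9a8, a sodium-proton exchanger (0.90), Ren1 to Uaca (0.87), Agt to Camk1 (0.84) and Mas1 to Slc18b1 (0.80). These values are descriptions over mice that share group and library preparation. No member was among another member's 3 closest genes.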

How the data were processed

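The authors made stranded polyA libraries from flash-frozen kidneys, used TrimGalore for trimming, STAR for mapping to GRCm38 and HTSeq 0.6.1 for counting of reads with a unique position in the genome (FastQC 0.11.2, SAMtools 1.1 and Picard 1.119 are also named in the submitters' processing notes). The deposited values are raw counts, 1 per gene and mouse, with no normalization by the authors. Rows that name no gene held 26.9 to 31.1% of counts, including reads without a unique alignment (17.8 to 21.2%), and were left out of library sizes.

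From these counts edgeR 4.0.16 (R 4.3.3) was run with its default expression filter (minimum count 10), TMM scaling and a quasi-likelihood fit of the 3 group means over all 31 mice. Genes were called at a Benjamini-Hochberg adjusted p under 0.05 over 15185 genes. The approximate standard error (SE) divides the size of a log2 fold change by the root of its F value, and intervals extend 1.96 SE either way. Correlations used log2 values with 1 CPM added and 100000 permutations within groups. The share of all gene pairs as strongly correlated was added after the data were seen. Other steps ran in Python 3.11.15 (matplotlib 3.10.9, pandas 2.3.3, scipy 1.17.1 and numpy 2.4.6). DESeq2 1.42.0 was an alternative. All tests were first tried on simulated data.

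Members, lists and tests were chosen with earlier results of these data known. Named were all members, in each list the 4 called genes with the largest fold change in a comparison, Agtr2, Agtrap and Anpep whatever their values, and genes closest to a member. Beyond this rule Thop1, Nr3c2, Sgk1, Slc12a3, Gm11651, Airn and Ren2 and the mast cell genes were named after their values were seen. Locations and 3′UTRs come from GENCODE vM21, microRNA and start-site sequences from RefSeq. Labels call each sample separate, and mice are the replicates. Protein sequences were not used here, and 1 further pathway gene and the comparison that needs it are not reported here.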

Additional observations from a re-analysis of the deposited data

Results flagged for a closer look

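Each of the 9 members was searched in the wild-type group of 5 for a mouse set apart, by the gap to its nearest neighbour over the whole range (Dixon's critical value 0.71). Chance flags about 1 in 20 groups of normally distributed values, and 2 of the 9 were set apart. Both flags fell on the same mouse and are not independent. The share of all tested genes that this rule flags in these 5 mice was not computed. Wild-type mouse 5 read 73.2 CPM for Agt, with the other 4 at 40.7 to 45.8 CPM and a gap of 0.841 of the range. The same mouse read 54.8 CPM for Agtr1a, with the other 4 at 48.0 to 49.3 CPM and a gap of 0.813 of the range. It also had the highest wild-type sum of hepatocyte markers (282 CPM). Wild-type mice 3 and 4 had sums of 222 and 224 CPM with Agt at 45.8 and 44.1 CPM, and a link to Agt was not tested. Neither Agt nor Agtr1a lost a call against wild type when mouse 5 was left out.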

How the results depend on the processing

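Shares in brackets are of all genes called under the same setting, in either direction. Every member call of PBS against wild type was kept in all 31 fits that left out one mouse (71.4 to 75.0%). With an added threshold of 0.5 on the absolute log2 fold change, 6 of the 8 were called (42.4%), Enpep and Atp6ap2 being under it. Under the other alternatives, direction and side of the threshold were kept by 70 of 72 values for PBS against wild type, 61 of 80 for RGLS4326 against PBS and 63 of 72 for RGLS4326 against wild type. For RGLS4326 against PBS, where 2 members were called, the count was 1 with the threshold of 0.5 (2.15%), 4 with DESeq2 (21.1%), 1 with no filter on low counts (8.73%), 1 with only those groups fitted (10.1%), 1 without RGLS4326-treated mouse 9 (8.14%), 0 in each index series alone (0 genes) and 0 to 4 with single mice left out (4.08 to 26.4%). In the first index series alone the direction turned for Ren1 (-0.67), Agt (0.010), Enpep (-0.031) and Mme (-0.015), and without RGLS4326-treated mouse 9 for Ren1 (-0.12, in a range of -0.12 to 0.39 with single mice left out). The cause was not tested. For RGLS4326 against wild type, where 8 were called, the count was 5 with the threshold of 0.5 (31.5%), 1 in the second index series alone (2.58%), which has 2 wild-type mice, and 7 to 8 with single mice left out (60.4 to 67.5%). The third index series has 1 wild-type mouse and was not fitted alone against wild type. Of 28 pairs 27 were correlated in the main analysis of 26 mice, where 32.5% of all gene pairs were as strongly correlated as the weakest of these. In RGLS4326-treated mice alone 15 were correlated, and in PBS-treated mice alone 18. No share of all gene pairs was computed within either group.

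Replicate numbers mark different animals. Same-numbered PBS and RGLS4326 mice had a mean correlation of -0.093, over 0.1 in 4 of 12 pairs, and 2 of 12 correlated best with their own number. With the replicate block 0 members and 303 of all genes were called for RGLS4326 against PBS. Depth limits Agtr1b, Agtr2 and Ren2, which have at most 17 counts in any mouse.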
